A study of Mus musculus with 6 samples.

Results

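FGF19, a human hormone, was set directly against FGF15, its mouse orthologue, in the liver of mice. The comparison used the 4 arrays whose titles name FGF19 or FGF15 (2 each) of 6 arrays in all, and every gene that the platform annotation pairs with a probe set of its own, 12393 genes in all. The mice were male C57Bl/6 wild-type animals that received purified FGF15, recombinant FGF19 or vehicle into the jugular vein, and liver RNA was taken 6 h later and hybridised to a 1-colour Affymetrix mouse array. The vehicle arrays serve here as the reference level and in the shared estimate of the spread. The dose of either protein, the composition of the vehicle and the age of the mice were not in the labels used here, so the hormone, its preparation and its dose cannot be told apart. Whether the 2 arrays of a group stand for different mice is unstated in the labels, and p-values therefore measure only the spread between arrays, which may be technical. All 10 hepatocyte markers with a probe set, among them the albumin and transthyretin genes, lay above the filter on low signals. So did the 13 Kupffer cell, 13 sinusoidal endothelial and 14 stellate cell markers. The cholangiocyte, neutrophil, lymphocyte, erythroid, pancreatic acinar and adipose lists each had 2 to 4 markers under it, so these cell types are less fully covered.

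FGF15 and FGF19 are made by the ileum when bile acids returning from the gut activate the nuclear receptor FXR, and they travel in the portal blood to the liver. Hepatocytes sense them through the tyrosine kinase receptor FGFR4 together with the membrane protein β-Klotho, and the receptor signals through the ERK kinase cascade. The best known outcome is repression of Cyp7a1, the gene of the enzyme that limits bile acid synthesis, and the hormones also act on glucose, lipid and protein metabolism. The orthologues are unusually divergent in sequence for a hormone pair of mouse and human, which gives the direct comparison its interest.

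Values are probe set signals on the linear scale that the authors deposited, and differences are FGF19 minus FGF15 on the scale log2(signal + 32), so the fold of a gene with a low signal is understated. FGF19 replicate 1 stood apart from the other arrays in its control probe sets. Its 18S ribosomal RNA control read 29.3 against 9.99 to 12.6 elsewhere, its β-actin 3' to 5' ratio 1.63 against 1.30 to 1.39, and its spiked-in controls 688 against 796 to 957 (geometric mean). The part of these values in any result was not tested, and results are given without this array where leaving it out ended a call or moved a count by over 1.5-fold. Log2 signals of the FGF15 arrays correlated with those of the FGF19 arrays at r = 0.985 to 0.988 across genes, which are not independent replicates, against 0.988 within FGF15 and 0.992 within FGF19.

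The hormones gave different transcript levels in a limited set of genes. Of 9692 genes tested, 233 (2.4%) were higher and 183 (1.89%) lower with FGF19 than with FGF15 at an adjusted p under 0.05 in limma, 416 (4.29%) in all. The largest differences were in Igfbp1 (9.64-fold higher with FGF19) and the immediate early gene Egr1 (7.58-fold higher). The largest decrease was in Inhbe (3.31-fold lower). Differences past 2-fold were more often toward FGF19: 43 called genes were higher and 10 lower by that much, and the median size of a called difference was 0.56 on the log2 scale. For 7101 genes (73.3%) the 95% interval of the difference lay within 1.5-fold in either direction on the scale log2(signal + 32). For genes with signals near or under 32 the offset shrinks a difference, so this share does not measure equal levels there. In all 416 called genes the pair of FGF19 arrays was free of overlap with the pair of FGF15 arrays, as it was in 20.1% (FGF19 above) and 25.8% (FGF19 below) of all genes tested. Without FGF19 replicate 1 the counts were 137 higher and 97 lower, of which 128 and 95 were among the genes called with all arrays. The lower count was also 110 without FGF15 replicate 1 and 115 without FGF15 replicate 2. An eBayes fit without the intensity trend called 110 higher and 53 lower, and 27 of the 73 called genes named by rule lost their call in it.

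**Figure D1:**
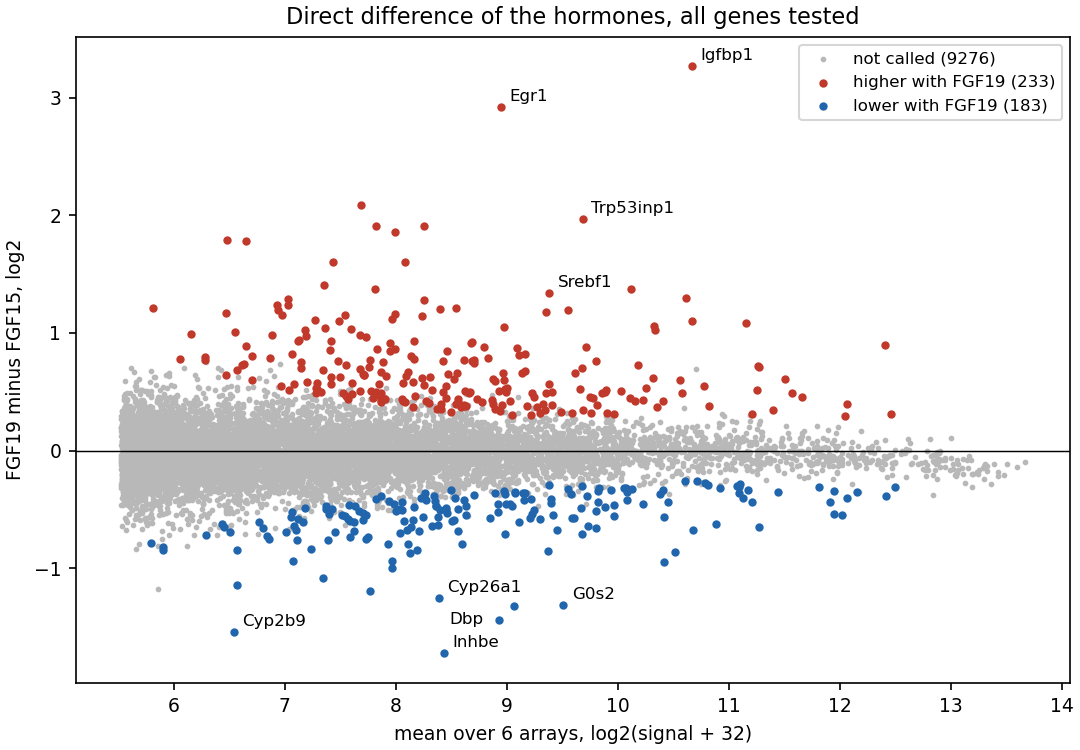
Each point is 1 of the 9692 genes tested, with its mean log2(signal + 32) over the 6 arrays on the horizontal axis and the log2 difference FGF19 minus FGF15 on the vertical axis. The 233 genes called higher are red and the 183 called lower are blue, and Igfbp1 and Egr1 lie above all others at 3.27 and 2.92.

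The vehicle arrays place these differences. In 132 of the 233 higher genes (56.6%) and 102 of the 183 lower genes (55.7%) the vehicle mean lay between the means of the hormones. In 58 higher and 50 lower genes the FGF15 mean lay between the vehicle and FGF19 means, so FGF19 was the farther from vehicle. In the other 43 and 31 genes FGF15 was the farther. Over all genes tested the vehicle mean lay between the hormones in 24.5%. These shares are a description, since the contrasts share arrays and genes were taken for the distance between the hormones. Against vehicle itself, 569 genes (5.87%) were higher and 644 (6.64%) lower with FGF15, and 608 (6.27%) were higher and 704 (7.26%) lower with FGF19.

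Sequence around the transcription start is shown for some of the genes with the largest differences in each direction, to set the regulatory DNA beside the values. The window of Egr1 is not shown, although its difference was larger than that of Tnfrsf12a. Transcription starts were taken from the RefSeq table used here. Each window runs from 250 bases before to 50 bases after the transcription start given in that table (RefSeq, GRCm38.p6), 5′ to 3′ on the strand of the gene. Capitals mark matches on either strand to the motifs searched: the cAMP response element TGACGTCA, the E-box CACGTG, the C/EBP and ATF composite element TGATGCAA and the EGR element GCGGGGGCG. The window of Igfbp1 is chr11:7197537-7197836 (plus strand), that of Tnfrsf12a chr17:23677400-23677699 (minus strand), that of Inhbe chr10:127351799-127352098 (minus strand) and that of Cyp2b9 chr7:26173159-26173458 (plus strand).
Igfbp1, higher with FGF19: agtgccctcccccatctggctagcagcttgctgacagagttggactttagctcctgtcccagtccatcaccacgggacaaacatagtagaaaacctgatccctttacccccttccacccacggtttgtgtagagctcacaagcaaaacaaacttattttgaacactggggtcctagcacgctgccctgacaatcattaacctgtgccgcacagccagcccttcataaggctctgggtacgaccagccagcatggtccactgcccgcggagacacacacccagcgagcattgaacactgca
Tnfrsf12a, higher with FGF19: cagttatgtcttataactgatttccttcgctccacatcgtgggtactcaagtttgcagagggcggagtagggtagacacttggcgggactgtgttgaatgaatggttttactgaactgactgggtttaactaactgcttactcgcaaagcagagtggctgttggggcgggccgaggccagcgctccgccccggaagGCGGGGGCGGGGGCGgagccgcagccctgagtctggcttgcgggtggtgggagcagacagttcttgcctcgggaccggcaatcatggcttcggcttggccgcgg
Inhbe, lower with FGF19: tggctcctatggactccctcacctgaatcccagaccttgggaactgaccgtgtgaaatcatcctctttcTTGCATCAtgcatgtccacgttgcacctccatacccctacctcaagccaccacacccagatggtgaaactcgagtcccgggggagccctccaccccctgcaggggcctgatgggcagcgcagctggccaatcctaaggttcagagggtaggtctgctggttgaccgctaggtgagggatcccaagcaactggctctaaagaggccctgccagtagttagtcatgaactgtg
Cyp2b9, lower with FGF19: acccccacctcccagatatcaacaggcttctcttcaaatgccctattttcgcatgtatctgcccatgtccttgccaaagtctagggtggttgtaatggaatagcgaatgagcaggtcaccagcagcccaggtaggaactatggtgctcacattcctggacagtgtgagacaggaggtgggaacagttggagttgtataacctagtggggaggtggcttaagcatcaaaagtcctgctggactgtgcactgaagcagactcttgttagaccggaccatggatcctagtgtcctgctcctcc
The windows of Igfbp1 and Cyp2b9 held none of these letters. Tnfrsf12a held a pair of overlapping EGR elements that began 54 and 48 bases before the start, and Inhbe held TGATGCAA on the opposite strand, beginning 181 bases before the start. Of 182 higher genes with a window in the table, 20 (11%) held GCGGGGGCG, against 8 of 147 lower genes (5.44%), 6.18% of 7843 tested genes and 2.91% of all 32851 windows. TGACGTCA was in 6.59% of the higher, 2.04% of the lower and 3.34% of the tested genes, CACGTG in 13.7%, 13.6% and 11.6%, and TGATGCAA in 2.75%, 1.36% and 0.867%. Over all windows of the table the shares of those motifs were 1.79%, 7.15% and 0.895%. A match is a description of these letters and not of a bound site, and TGACGTCA and CACGTG share the letters ACGT.

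Igfbp1 encodes a secreted binding protein of insulin-like growth factors whose transcript is held down by insulin. Its probe set (1418918_at, gene at chr11:7197787-7202546, GRCm38.p6) read 740.1 and 753 with vehicle, 709 and 742 with FGF15, and 6925 and 7630 with FGF19. Both FGF19 arrays stood far above the other arrays, while the FGF15 arrays overlapped vehicle. The mean signal was 7278 ± 499 with FGF19 and 726 ± 23.5 with FGF15 (SD, n = 2), a difference of 3.27 ± 0.07 on the log2 scale (SE, adjusted p = 6.18e-09). With FGF15 the difference from vehicle was -0.04 (adjusted p = 0.767).

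Several genes that respond within minutes to hours to growth factor signalling were higher with FGF19. Of 24 measured immediate early genes, 9 were higher and 0 lower with FGF19 (2 lower at an unadjusted p under 0.05), against 2.4% and 1.89% of all genes tested, and their median difference was 0.38 against -0.02 over all genes. This median was 0.25 with a pseudocount of 64, 0.21 without the filter on low signals and 0.63 with the filter at the 50th percentile. With that pseudocount, with the filter at the 50th percentile or with the mean of probe sets, 1 member was called lower. Without FGF19 replicate 2, Jund was called lower (-0.50, adjusted p = 0.00903). Egr1, a zinc finger transcription factor induced through ERK, read 85.1 and 108 with vehicle, 315 and 321 with FGF15, and 2607 and 2642 with FGF19. The groups formed separate steps, FGF15 above vehicle and FGF19 far above FGF15. The difference between the hormones was 2.92 ± 0.09 (SE, adjusted p = 1.35e-07). FGF15 itself was 2.73-fold above vehicle (adjusted p = 7.47e-06).

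Other early genes were at the vehicle level with FGF15 and above it with FGF19. Btg2, an antiproliferative protein, read 157 and 158 with vehicle, 171 and 164 with FGF15, and 704 and 730.3 with FGF19 (difference 1.91 ± 0.08, adjusted p = 1.34e-06). Ier2, a nuclear early response protein, read 149 and 162, then 152 and 159, then 545.5 and 530.3 (1.60 ± 0.09, adjusted p = 5.43e-06). Fos, a subunit of the AP-1 transcription factor, read 38.4 and 33.3, then 38.6 and 33.1, then 130.2 and 112 (1.17 ± 0.15, adjusted p = 0.00132). In each of these the vehicle and FGF15 arrays overlapped or lay close together and both FGF19 arrays lay apart. Junb and Zfp36, an AP-1 subunit and an mRNA decay factor, followed the same order, at 1.89-fold and 1.85-fold. The remaining called members were Ccn2 (2.23-fold), Maff (2.31-fold) and Klf6 (1.67-fold). The call of Maff ended without FGF15 replicate 2, FGF19 replicate 1 or FGF19 replicate 2 (adjusted p up to 0.134), and that of Klf6 without any array but FGF15 replicate 2 (adjusted p up to 0.27). Myc, a growth-promoting transcription factor, differed by 0.32 (95% interval -0.02 to 0.65, adjusted p = 0.339).

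Among 11 feedback genes of ERK and FGF signalling, 2 were higher and 0 lower with FGF19 (0 lower unadjusted; median 0.24, and 0.05 to 0.33 with any single array left out). Dusp6, a phosphatase that switches off ERK, read 163 and 162 with vehicle, 416 and 383 with FGF15, and 789.7 and 775 with FGF19. Both hormones lay above vehicle and FGF19 lay above FGF15 without overlap, by 0.92 ± 0.08 (SE, adjusted p = 0.000113). Dusp1, a phosphatase of stress and mitogen kinases, read 249 and 222, then 189.6 and 177, then 382.5 and 373 (0.93 ± 0.09, adjusted p = 0.000279). Here the order was FGF15, vehicle, FGF19. Ccnd1, which encodes cyclin D1, differed by 0.43 (95% interval 0.16 to 0.69) and did not pass (adjusted p = 0.0797). Without FGF15 replicate 1, 4 of the 11 were called higher.

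**Figure D2:**
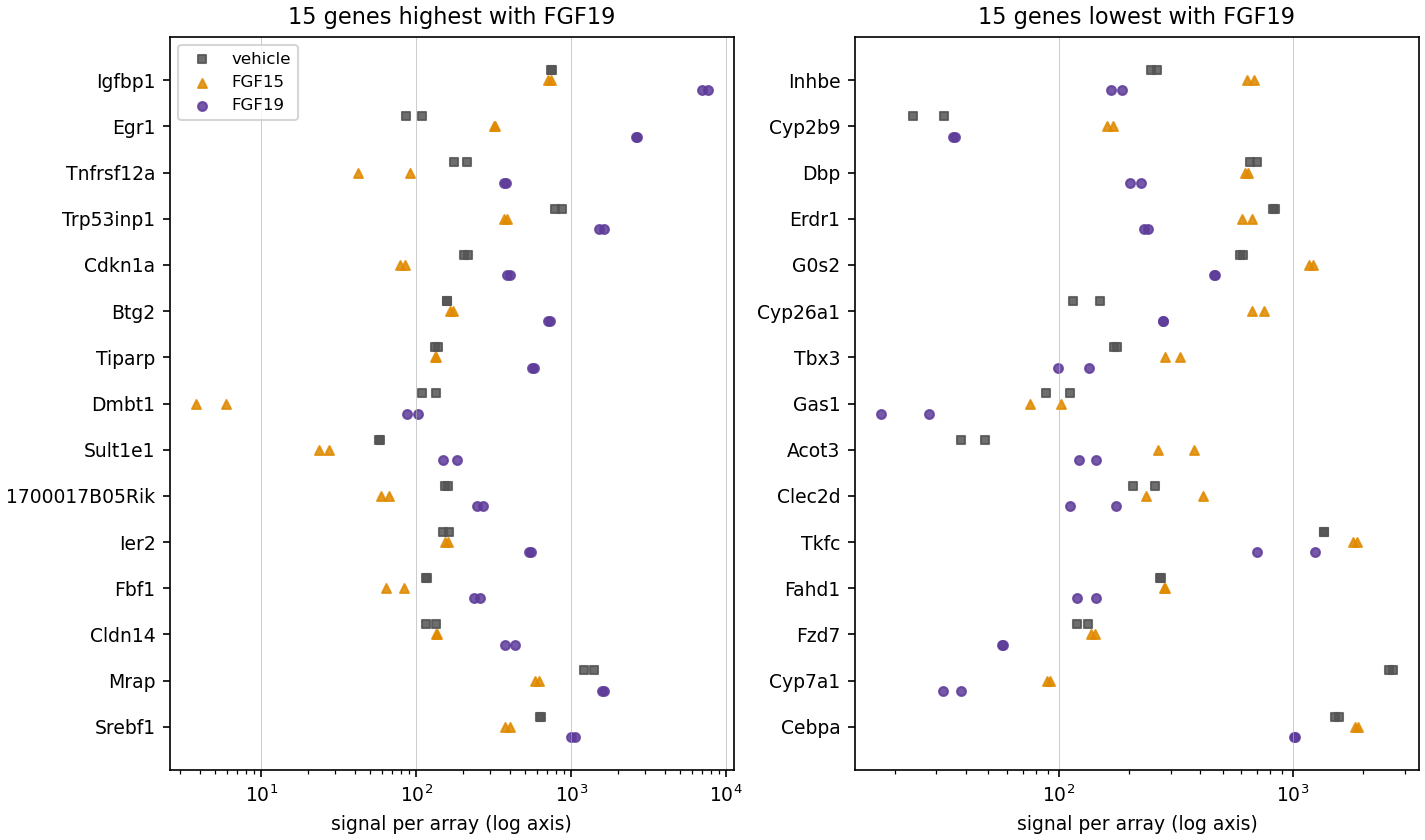
Signal per array on a log axis for the 15 genes with the largest difference in each direction, with vehicle as grey squares, FGF15 as orange triangles and FGF19 as purple circles, 2 arrays each. The genes were chosen to have the FGF19 pair separate from the FGF15 pair. Vehicle lies between the pairs (Cdkn1a, Srebf1, Inhbe), beside FGF15 (Igfbp1, Btg2, Dbp), near FGF19 (Cyp2b9) or far beyond both (Cyp7a1).

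Some p53 target genes were higher with FGF19. Of 18 measured, 5 were higher and 0 lower (1 unadjusted), against 2.4% and 1.89% of all genes tested. Their median was 0.08, against -0.02 over all genes. The same shares and median over all genes stand beside the counts of every other list. Trp53inp1, a p53-induced stress protein, read 864 and 789.6 with vehicle, 386 and 367 with FGF15, and 1617 and 1511 with FGF19. The hormones lay on opposite sides of vehicle, and their difference was 1.97 ± 0.07 (SE, adjusted p = 5.64e-07), against 1.22 ± 0.14 on another probe set. Cdkn1a, the cell cycle inhibitor p21, read 202 and 217, then 84.6 and 77.9, then 383 and 403.5 (1.91 ± 0.09, adjusted p = 3.51e-06). It had the same order, with FGF15 2.13-fold under and FGF19 1.76-fold over vehicle. The other called members were Btg2, the kinase gene Plk3 (1.70-fold) and the stress sensor gene Gadd45a (1.74-fold), whose call ended without either FGF19 array (adjusted p up to 0.0601).

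Tnfrsf12a encodes Fn14, the receptor of the cytokine TWEAK, and is induced by growth factors. It read 176 and 213 with vehicle, 42.2 and 90.7 with FGF15, and 381 and 369 with FGF19. The FGF15 arrays lay under vehicle and apart from each other, and the FGF19 arrays lay above vehicle. The difference was 2.09 ± 0.20 (SE, adjusted p = 0.000223), and another probe set gave 2.30 ± 0.33.

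Glucocorticoid responsive genes, a set that adrenal steroids and fasting regulate in liver, had the highest share of called members. Of 23 measured, 13 were higher and 0 lower with FGF19 (0 unadjusted; median 0.31), and 9 to 10 were higher with any single array left out. The metallothionein gene Mt1 was called lower without FGF19 replicate 2 (-0.34, adjusted p = 0.0106). Cebpd, a transcription factor of the acute response, read 234 and 237 with vehicle, 181 and 174 with FGF15, and 493 and 459 with FGF19 (1.28 ± 0.08, adjusted p = 1.88e-05). Both FGF15 arrays lay under vehicle and both FGF19 arrays lay above it. Another probe set of Cebpd gave 0.14 ± 0.32, and the mean of both did not pass the test. Gadd45g, a growth arrest gene, read 363 and 358, then 351.5 and 376, then 801 and 770.3 (1.05 ± 0.07, adjusted p = 3.02e-05), with vehicle and FGF15 overlapping. Tat, the tyrosine aminotransferase of amino acid breakdown, read 6227 and 6116, then 3670 and 3738, then 6355 and 7528. Its FGF19 arrays were above vehicle and its FGF15 arrays well under it (0.90 ± 0.08, adjusted p = 0.000222).

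The list also held Sgk1, a kinase of ion transport (2.31-fold higher), Gadd45b (2.36-fold) and the transcription factor gene Zbtb16 (2.06-fold, on an _x_at probe set that can bind related transcripts). Cdkn1a, Dusp1 and Angptl4, described with other lists, were called members of this list as well, so the lists share genes. The 10 members not called included Fkbp5, Klf9, Mt2 and Pck1. Ddit4, an inhibitor of mTOR signalling, was 1.92-fold higher, a call that ended without FGF19 replicate 1 (adjusted p = 0.0647). Per1, a clock gene with a glucocorticoid response element, read 177 and 191 with vehicle, 143 and 128 with FGF15, and 182 and 232 with FGF19. Its difference of 0.51 ± 0.12 passed (adjusted p = 0.045), and the call ended with any array but FGF19 replicate 1 left out (adjusted p up to 0.251). The calls of Lcn2 (1.24-fold) and Tsc22d3 (1.24-fold) were as fragile, with adjusted p up to 0.277 and 0.2 when 1 array was left out. Lcn2 lost its call without any array but FGF19 replicate 1, and Tsc22d3 without any 1 of the 6 arrays.

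**Figure D3:**
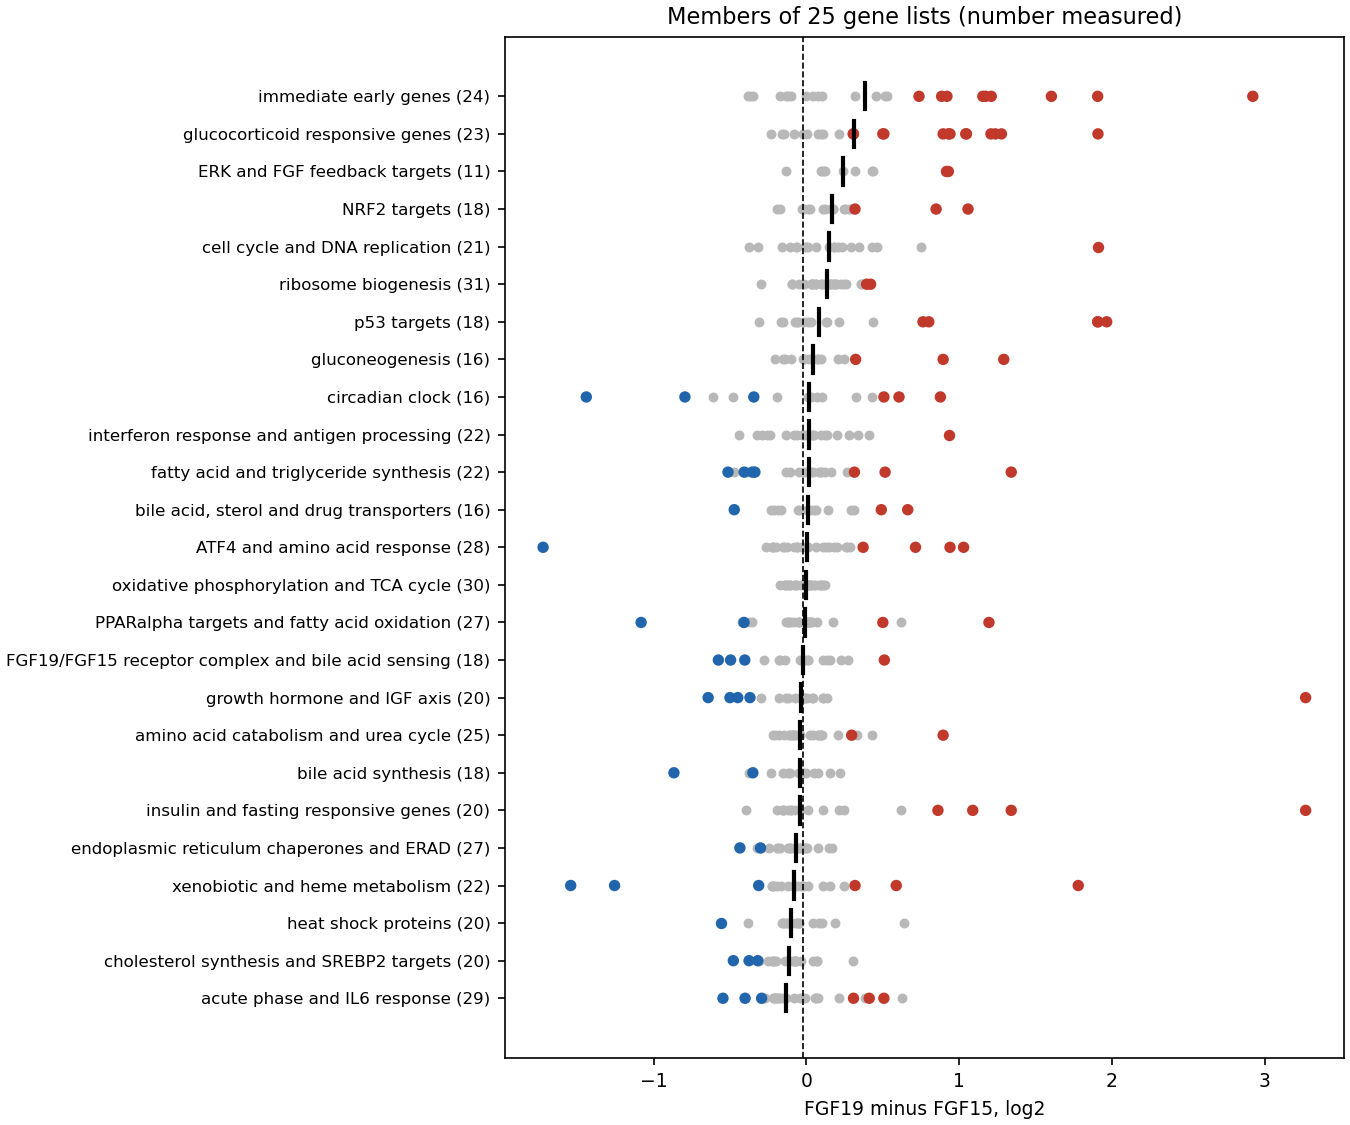
Each row is 1 of 25 gene lists with its number of measured members in brackets, and each point is a member's log2 difference FGF19 minus FGF15, red or blue where called and grey where not. Black bars are list medians and the dashed line is the median of all genes tested, -0.02; the bars of the immediate early (0.38) and glucocorticoid responsive genes (0.31) lie farthest to the right.

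In bile acid synthesis, the target that both hormones are known for, Cyp7a1 and Cyp2c70 were lower with FGF19 than with FGF15, and the other measured genes did not pass. Cyp7a1 (1438743_at, chr4:6265612-6275632) read 2677 and 2572 with vehicle, 91.5 and 89.4 with FGF15, and 38.2 and 32.1 with FGF19. All hormone arrays lay far under vehicle, and the FGF19 arrays lay under the FGF15 arrays. The difference between the hormones was -0.87 ± 0.09 (SE, adjusted p = 0.000375), a 1.82-fold step on the offset scale beside falls of 21.7-fold with FGF15 and 39.6-fold with FGF19 from vehicle. Another probe set of Cyp7a1 gave -0.64 ± 0.09.

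Cyp8b1 and Cyp7b1 did not pass the test between the hormones. Cyp8b1, the 12α-hydroxylase that sets the share of cholic acid, read 1171 and 1317 with vehicle, 669.5 and 656 with FGF15, and 618.5 and 506 with FGF19. Its hormone arrays did not overlap, but the difference of -0.23 (95% interval -0.45 to -0.02) did not pass (adjusted p = 0.26). Cyp7b1, of the alternative pathway, read 2941 and 3055 with FGF15 and 2832 and 2960 with FGF19, which overlapped (-0.05, 95% interval -0.19 to 0.09). Cyp2c70, which makes the muricholic acids of the mouse, read 6196 and 6270, then 4393 and 4312, then 3309 and 3503. The pairs were separate and FGF19 was the lowest (-0.35 ± 0.06, adjusted p = 0.0123), a call that ended without FGF15 replicate 1 (adjusted p = 0.11) or FGF15 replicate 2 (0.0729). In all, 0 of 18 measured genes were higher (0 unadjusted) and 2 lower (median -0.04), and 4 were lower without FGF19 replicate 2 and 1 without either FGF15 array.

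Among receptors and sensors of the pathway, FXR was lower with FGF19, while the test was not passed for SHP, FGFR4 or β-Klotho. Nr0b2, which encodes the repressor SHP, read 120.3 and 115.5 with vehicle, 269 and 274 with FGF15, and 284 and 263 with FGF19. The hormone arrays overlapped, and the difference was 0.01 (95% interval -0.19 to 0.21). Fgfr4, the receptor, differed by -0.18 (95% interval -0.46 to 0.10) and Klb, which encodes β-Klotho, by -0.04 (-0.29 to 0.21). Nr1h4, the gene of the bile acid receptor FXR, read 992 and 979.7 with vehicle, 802 and 799 with FGF15, and 564 and 490.5 with FGF19. Each step was free of overlap, and the difference between the hormones was -0.58 ± 0.08 (SE, adjusted p = 0.00197).

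Of the 18 measured genes of the receptor complex and of bile acid sensing, 1 was higher and 3 lower with FGF19. The higher member was Nr1i2, the xenobiotic and bile acid receptor PXR (139.8 and 153 with FGF15, 226 and 218 with FGF19, 1.42-fold). Its call ended without FGF15 replicate 1, FGF19 replicate 1 or FGF19 replicate 2 (adjusted p up to 0.112). Nr1i3, the related receptor CAR, was the other way round (442 and 441 with FGF15, 318 and 334 with FGF19, 1.32-fold lower), and its call ended without any FGF15 or FGF19 array (adjusted p up to 0.134). Fgfr2 was 1.41-fold lower, a call that ended with any single array left out (adjusted p up to 0.224).

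**Figure D4:**
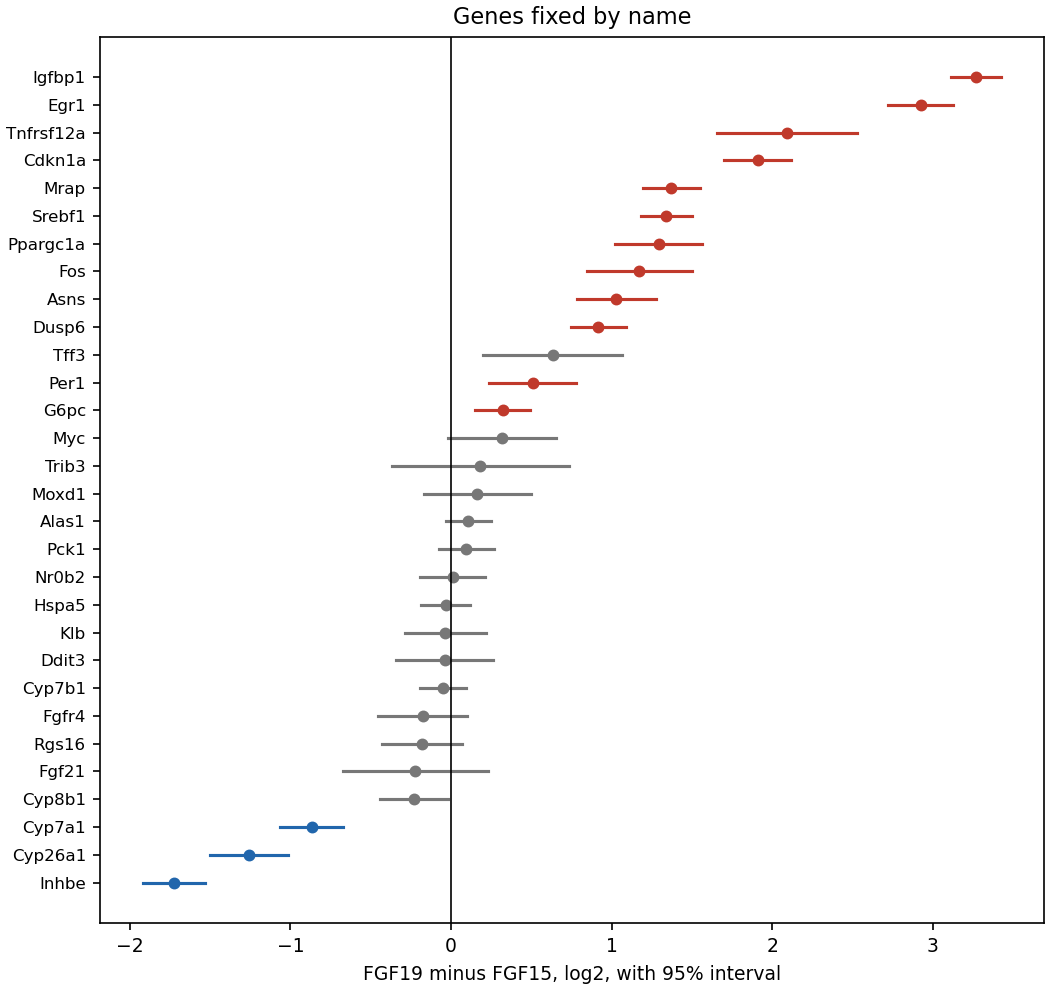
Log2 difference FGF19 minus FGF15 (points) with its 95% interval (bars) for the 30 measured genes fixed by name, red where higher and blue where lower at an adjusted p under 0.05. Igfbp1 and Egr1 stand at 3.27 and 2.92 and Inhbe at -1.72, while the intervals of Nr0b2, Klb, Cyp7b1, Pck1, Hspa5 and Ddit3 span 0.

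Ppargc1a and G6pc, genes of glucose output, were lowest with FGF15 and nearer to vehicle with FGF19. Ppargc1a, the coactivator PGC-1α that drives the fasting programme, read 204 and 198 with vehicle, 31.0 and 29.7 with FGF15, and 111 and 130.5 with FGF19. The groups did not overlap, in the order FGF15, FGF19, vehicle, and the hormones differed by 1.29 ± 0.12 (SE, adjusted p = 0.000223). The other 4 probe sets of Ppargc1a gave 0.47 to 0.88, and those at 0.47 and 0.63 did not pass. The mean of its probe sets was 0.81. G6pc, the phosphatase of the last step of glucose release, read 1602 and 1604, then 591 and 661, then 827 and 753, in the same order. The difference of 0.32 ± 0.08 (adjusted p = 0.0455) lost its call with any array but FGF15 replicate 2 or FGF19 replicate 2 left out (adjusted p up to 0.246). Pck1, which encodes the carboxykinase that commits carbon to glucose, read 5484 and 5583 with FGF15 and 5588 and 6256 with FGF19 (0.10, 95% interval -0.07 to 0.26, adjusted p = 0.596). With Tat, 3 of 16 gluconeogenic genes were higher and 0 lower (0 unadjusted; median 0.04), and Fbp1 was called lower without FGF19 replicate 2 (-0.26, adjusted p = 0.0321).

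Of 20 genes responsive to insulin and fasting, 4 were higher with FGF19 and 0 lower (1 unadjusted), although their median was -0.04. They were Igfbp1, Lpin1, Srebf1 and Trib1. Lpin1, a phosphatase of triglyceride synthesis and a partner of PGC-1α, read 3117 and 2927 with vehicle, 1311 and 1325 with FGF15, and 2673 and 3013 with FGF19. FGF19 overlapped vehicle, and FGF15 lay far under both (1.09 ± 0.07, adjusted p = 2.54e-05). Srebf1, the transcription factor SREBP-1 of lipogenesis, read 641 and 629, then 373 and 401, then 1063 and 996. It lay under vehicle with FGF15 and above it with FGF19 (1.34 ± 0.07, adjusted p = 5.43e-06). Trib1, a pseudokinase, was 1.82-fold higher.

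Lipid genes did not share a direction. Of 22 genes of fatty acid and triglyceride synthesis, 3 were higher and 4 lower with FGF19 (median 0.01). Fasn, fatty acid synthase, read 1773 and 1889 with vehicle, 2253 and 2381 with FGF15, and 3448 and 3203 with FGF19, separate pairs in that order (0.51 ± 0.07, adjusted p = 0.00218). Elovl6, a fatty acid elongase, read 662 and 599.7, then 1141 and 1284, then 798 and 881, so FGF15 was the farther from vehicle. Its difference was -0.51 ± 0.08 (adjusted p = 0.00641), and the call ended without FGF15 replicate 2 (adjusted p = 0.0536) or FGF19 replicate 1 (0.0593). Besides Srebf1 and Fasn, Elovl2 was higher (1.24-fold), and besides Elovl6, the citrate lyase gene Acly (1.28-fold), the ChREBP gene Mlxipl (1.26-fold) and the pyruvate kinase gene Pklr (1.33-fold) were lower. Each of these 4 calls ended without either FGF15 array (adjusted p up to 0.122, 0.0669, 0.18 and 0.171), and those of Elovl2, Mlxipl and Pklr also without FGF19 replicate 1 (0.0585, 0.118 and 0.235). Elovl2 and Pklr also lost their calls without either vehicle array, and Mlxipl without FGF19 replicate 2. The lower count was 1 without FGF15 replicate 1, 0 without FGF15 replicate 2 and 2 without FGF19 replicate 1.

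Genes of lipid storage and of PPARα were divided as well. G0s2, an inhibitor of the lipase ATGL, read 614 and 591 with vehicle, 1172 and 1223 with FGF15, and 461 and 465 with FGF19. The hormones lay on opposite sides of vehicle (-1.31 ± 0.07, adjusted p = 3.77e-06). Cidec, a lipid droplet protein, read 48.0 and 43.6, then 56.3 and 84.7, then 188 and 213 (1.20 ± 0.15, adjusted p = 0.00163), with the FGF19 arrays clear of all others. Acot3, an acyl-CoA thioesterase, read 48.3 and 38.1, then 379 and 265, then 144 and 122, on an _s_at probe set that can bind related transcripts (-1.08 ± 0.16, adjusted p = 0.00353). Both hormones were above vehicle and FGF15 was the higher.

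Of 27 PPARα targets, 2 were higher and 2 lower with FGF19 (median -0.01). Angptl4, an inhibitor of lipoprotein lipase, was 1.41-fold higher on an _s_at probe set and did not pass as the mean of its probe sets (0.26, adjusted p = 0.393), and its call also ended without either FGF15 array or FGF19 replicate 1 (adjusted p up to 0.122). Vnn1, a pantetheinase, was 1.33-fold lower, a call that ended without FGF15 replicate 1 or FGF19 replicate 2 (adjusted p up to 0.117). Slc27a2, a fatty acid transporter, differed by -0.38 (95% interval -0.61 to -0.15) and did not pass (adjusted p = 0.0775).

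A few cholesterol genes were lower with FGF19. Of 20 genes of cholesterol synthesis and SREBP2, 0 were higher (1 unadjusted) and 3 lower with FGF19 (median -0.11). Idi1, the isopentenyl diphosphate isomerase, read 936.5 and 1032 with vehicle, 1005 and 1075 with FGF15, and 774 and 701 with FGF19. The FGF19 arrays lay under all others (-0.48 ± 0.08, adjusted p = 0.00637), although without FGF15 replicate 2 the adjusted p was 0.053. Hmgcs1, HMG-CoA synthase, differed by -0.32 ± 0.06 on an _x_at probe set (adjusted p = 0.0183; 0.0924 and 0.0939 without FGF15 replicate 1 or 2). Sqle, squalene epoxidase, differed by -0.38 ± 0.09 (adjusted p = 0.0471), a call that ended with any array but FGF15 replicate 2 left out (up to 0.242). Without FGF19 replicate 1, Insig2, a retention protein of the SREBP pathway, was called higher (0.39, adjusted p = 0.0302) and 2 genes lower. The lower count was 1 with centring of arrays on their medians or without either FGF15 array.

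Among 16 transporters of bile acids, sterols and drugs, 2 were higher and 1 lower. Abcg5, a subunit of the sterol exporter into bile, read 489.6 and 444 with vehicle, 360.5 and 373 with FGF15, and 623 and 576 with FGF19. The hormones lay on opposite sides of vehicle (0.66 ± 0.08, adjusted p = 0.00102). Abca1, the cholesterol exporter to HDL, read 2779 and 2609 with FGF15 and 3705 and 3889 with FGF19 (0.49 ± 0.07, adjusted p = 0.00218), and its other 2 probe sets gave 0.77 and 0.66. Slc22a7, an organic anion transporter, read 726 and 723, then 224 and 221, then 156 and 147. Both hormones lay far under vehicle and FGF19 was the lower (-0.47 ± 0.08, adjusted p = 0.00686).

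Genes of the amino acid and unfolded protein responses went in different directions. Inhbe, which encodes the βE subunit of activin, a protein secreted by the liver, read 262 and 247 with vehicle, 638 and 679.7 with FGF15, and 187 and 168 with FGF19. FGF15 lay above and FGF19 under vehicle, and the difference of -1.72 ± 0.09 (SE, adjusted p = 3.51e-06) was the largest decrease with FGF19 of all genes tested. Asns, asparagine synthetase, another ATF4 target, read 206 and 191, then 50.4 and 47.0, then 135 and 130.3. It was lowest with FGF15, so the difference was positive (1.03 ± 0.11, adjusted p = 0.000568), and another probe set gave 0.70 ± 0.16. Cebpb, a transcription factor that ATF4 partners with, read 2424 and 2584, then 1873 and 1874, then 3098 and 3089 (0.71 ± 0.06, adjusted p = 0.000156).

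Of 28 measured genes of the ATF4 and amino acid response, 4 were higher and 1 lower (median 0.00), and 2 were higher without FGF19 replicate 1. Eif4ebp1, a brake on translation, was the other higher member beside Ddit4 (1.29-fold on an _x_at probe set), a call that ended without any array but FGF19 replicate 2 (adjusted p up to 0.216). Ddit3, the stress transcription factor CHOP, read 123 and 111 with FGF15 and 118 and 108 with FGF19, which overlapped (-0.04, 95% interval -0.34 to 0.26). Trib3 differed by 0.18 (-0.37 to 0.73) and Fgf21, a fasting hormone of the same FGF subfamily, by -0.22 (-0.67 to 0.23), both at low signals.

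Chaperone genes of the endoplasmic reticulum such as Dnajb9, Manf and Hspa5 were above vehicle with both hormones. Dnajb9, a co-chaperone of the unfolded protein response, read 1351 and 1335 with vehicle, 3571 and 3566 with FGF15, and 2644 and 2617 with FGF19. Each pair was tight and separate, and FGF19 lay between vehicle and FGF15 (-0.44 ± 0.06, adjusted p = 0.0024). Manf, a secreted protein of the same response, read 2971 and 2840 with FGF15 and 2407 and 2299 with FGF19 (-0.30 ± 0.06, adjusted p = 0.0249), a call that ended with any array but FGF19 replicate 1 left out (adjusted p up to 0.167). Hspa5, the central chaperone BiP, read (on an _s_at probe set) 5383 and 5248 with FGF15 and 5013 and 5372 with FGF19, overlapping (-0.03, 95% interval -0.19 to 0.12). Of 27 genes, 0 were higher (1 unadjusted) and 2 lower (median -0.07), and 1 was lower without any single array but FGF19 replicate 1. Of 20 heat shock proteins, 0 were higher (1 unadjusted) and 1, Dnajb4, was lower (1.48-fold, adjusted p = 0.0398). The call of Dnajb4 ended with any array but FGF15 replicate 1 left out. Hspa1a was called higher without FGF15 replicate 2 (0.91) and Hsph1 lower without FGF15 replicate 1 (-0.50). With all arrays Hsph1 differed by -0.38 ± 0.10 and did not pass (adjusted p = 0.0741), while its other probe set gave -0.47 ± 0.09 and passed.

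Drug and hormone metabolising enzymes held some of the largest differences. Cyp2b9, a cytochrome P450, read 32.4 and 23.8 with vehicle, 170 and 161 with FGF15, and 35.5 and 36.0 with FGF19. It was above vehicle with FGF15, while the FGF19 arrays lay just over the vehicle arrays (FGF19 minus vehicle 0.18, adjusted p = 0.452). The hormones differed by -1.54 ± 0.14 (SE, adjusted p = 0.000202). Cyp26a1, which degrades retinoic acid, read 149 and 115, then 748.5 and 669.8, then 277 and 278. Both hormones were above vehicle and FGF15 was 2.39-fold above FGF19 (-1.26 ± 0.11, adjusted p = 0.000137). Sult1e1, the sulphotransferase that inactivates oestrogen, read 58.6 and 57.7, then 27.4 and 23.4, then 184 and 148, on opposite sides of vehicle (1.78 ± 0.14, adjusted p = 8.19e-05).

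In the list of 22 genes of xenobiotic and heme metabolism 3 were higher and 3 lower (median -0.08), and 6 were lower without FGF19 replicate 2. Gsta4, a glutathione transferase, was higher by 0.59 ± 0.08 on the log2 scale. Cyp2b10 was 1.24-fold lower on an _s_at probe set, a call that ended without any array but FGF19 replicate 1 (adjusted p up to 0.212). Alas1, which limits heme synthesis, read 3191 and 3119 with FGF15 and 3418 and 3386 with FGF19 (0.11, 95% interval -0.03 to 0.25, adjusted p = 0.446).

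Of 18 targets of the antioxidant factor NRF2, 3 were higher and 0 lower (1 unadjusted; median 0.17). Gclc, the limiting enzyme of glutathione synthesis, read 1090 and 1039 with vehicle, 897 and 965 with FGF15, and 1799 and 2162 with FGF19. The FGF19 arrays lay far above all others (1.06 ± 0.09, adjusted p = 0.000113), and another probe set gave 0.94 ± 0.09. Hmox1, heme oxygenase, read 461 and 434, then 177 and 209.8, then 383.5 and 363 (0.85 ± 0.09, adjusted p = 0.000597), in the order FGF15, FGF19, vehicle. Gsta2, a glutathione transferase, was 2.87-fold above vehicle with FGF15 and 3.58-fold with FGF19. The difference of 0.32 ± 0.06 passed (adjusted p = 0.0231), and the call ended with any array but FGF19 replicate 2 left out (adjusted p up to 0.139).

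Clock genes differed in both directions. Dbp, a transcription factor that the clock drives, read 702 and 657 with vehicle, 624 and 643 with FGF15, and 224 and 202 with FGF19. FGF15 lay just under vehicle and FGF19 far under it (-1.44 ± 0.08 on an _s_at probe set, adjusted p = 5.43e-06), and another probe set gave -1.39 ± 0.10. Usp2, a deubiquitinase and clock output, read 422.5 and 381, then 206 and 213, then 104 and 110.1, in separate steps from vehicle to FGF19 (-0.80 ± 0.09, adjusted p = 0.000863). Its other probe set differed by -0.45 ± 0.13 and did not pass. Rora, a nuclear receptor of the clock, read 275 and 278.5, then 344.5 and 379, then 662 and 720.4 (0.88 ± 0.08, adjusted p = 0.000207). Its other probe sets gave 0.65 ± 0.09 and 0.41 ± 0.16, of which the second did not pass. Of 16 clock genes 3 were higher (with Per1 and Nfil3, 1.52-fold) and 3 lower (with Nr1d2, 1.27-fold). The call of Nfil3 ended without FGF19 replicate 1 (adjusted p = 0.064), and that of Nr1d2 without either FGF15 array or FGF19 replicate 2 (up to 0.0709).

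In the growth hormone and IGF axis 1 of 20 genes, Igfbp1, was higher and 4 were lower (median -0.03). Socs2, a brake on growth hormone signalling, read 1194 and 1215 with vehicle, 768 and 934 with FGF15, and 503 and 559 with FGF19. The pairs did not overlap, and the difference was -0.64 ± 0.09 (adjusted p = 0.00324), against -0.38 ± 0.08 on another probe set. Igfals, which stabilises IGFs in blood, read 312 and 346 with FGF15 and 231 and 215 with FGF19 (-0.50 ± 0.08, adjusted p = 0.0072), although the adjusted p was 0.0533 without FGF15 replicate 2 and 0.0544 without FGF19 replicate 2. The steroid enzyme gene Hsd3b5 and Serpina12 were 1.37-fold and 1.29-fold lower. The call of Hsd3b5 ended without either FGF15 array or FGF19 replicate 2 (adjusted p up to 0.0609), and that of Serpina12 without FGF15 replicate 1 or FGF19 replicate 2 (up to 0.0668). The lower count was 2 without either FGF15 array and 1 without FGF19 replicate 2.

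Acute phase genes were divided. Saa4, a constitutive serum amyloid, read 4665 and 4715 with FGF15 and 3090 and 3313 with FGF19, beside 4622 and 4657 with vehicle. FGF19 lay apart from all others (-0.55 ± 0.06, adjusted p = 0.00101). Crp, C-reactive protein, read 5134 and 5079 with FGF15 and 3840 and 3873 with FGF19, at the vehicle level of 3842 and 3926 (-0.40 ± 0.06, adjusted p = 0.00447). Il1r1, the interleukin-1 receptor, was 1.42-fold higher (0.51 ± 0.07, adjusted p = 0.00312). Of 29 genes, 3 were higher (with Lcn2 and Saa3) and 3 lower (with Orm2), at a median of -0.13. The lower count was 13 without FGF19 replicate 2, and the median was 0.03 without FGF19 replicate 1, so the direction of this list rested on that array. The higher count was 1 without either FGF15 array. Saa3 was 1.33-fold higher and Orm2 1.23-fold lower. The call of Saa3 ended without either FGF15 array or FGF19 replicate 1 (adjusted p up to 0.134) and that of Orm2 without any 1 of the 6 arrays (up to 0.202).

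The genes with the largest differences that belong to none of these groups were of mixed function. Tiparp, a poly(ADP-ribose) polymerase induced through the aryl hydrocarbon receptor, read 132 and 138 with vehicle, 132.5 and 134 with FGF15, and 555 and 577 with FGF19. FGF15 overlapped vehicle and FGF19 lay far above (1.86 ± 0.09, adjusted p = 2.58e-06), and 2 further probe sets gave 1.59 and 1.71. Cldn14, a tight junction claudin, had the same pattern (116 and 133.5, then 134 and 136, then 431 and 373, 1.38 ± 0.11). Dmbt1, a mucosal scavenger protein, read 133 and 108, then 3.76 and 5.89, then 103 and 87.5. Here FGF19 lay just under vehicle and FGF15 was close to 0, so the difference of 1.79 ± 0.15 (adjusted p = 0.000125) is set by the offset.

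Mrap, which carries the ACTH receptor to the cell surface, read 1206 and 1408 with vehicle, 582 and 615.5 with FGF15, and 1614 and 1586 with FGF19 (1.37 ± 0.08, adjusted p = 8.68e-06). Fbf1, a protein of the ciliary base, and the uncharacterised 1700017B05Rik were 2.65-fold and 3.04-fold higher with FGF19, each with the hormones on opposite sides of vehicle. Erdr1, on an _x_at probe set, was 2.50-fold lower, and Gas1, a growth arrest protein of the cell membrane, 2.20-fold lower, with 75.1 and 102 for FGF15 and 17.3 and 27.9 for FGF19. Its other probe set gave -0.71 ± 0.14, and the mean of the probe sets -0.58. In Mrap the mean of the probe sets was 0.80.

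Developmental and metabolic regulators were among the lower genes. Cebpa, the transcription factor of the differentiated hepatocyte, read 1577 and 1507 with vehicle, 1846 and 1904 with FGF15, and 1015 and 1013 with FGF19. FGF15 lay above and FGF19 under vehicle (-0.87 ± 0.06, adjusted p = 4.01e-05), in the opposite direction to Cebpb and Cebpd. Tbx3, a T-box transcription factor of development, read 176.5 and 172, then 283 and 329, then 98.99 and 134.5 (-1.19 ± 0.13, adjusted p = 0.000554). Its other probe set gave -0.39 ± 0.18, which did not pass. Fzd7, a Wnt receptor, and Fahd1, a mitochondrial hydrolase, were each 1.92-fold lower, with FGF15 near vehicle and FGF19 under both. As the mean of its probe sets Fzd7 did not pass (-0.45, adjusted p = 0.0928).

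A pair of the lower genes lost their calls when any 1 of several arrays was left out. Both also lost them without the filter on low signals and with a robust eBayes fit. Clec2d, a lectin-like ligand of NK cell receptors, read 235.5 and 412.5 with FGF15 and 175 and 112 with FGF19 (-1.001 ± 0.229, adjusted p = 0.0385). Its call ended without either vehicle array, FGF15 replicate 2 or FGF19 replicate 2 (adjusted p up to 0.22). Tkfc, a triokinase of fructose metabolism, read 1807 and 1874 with FGF15 and 705 and 1240 with FGF19 (-0.95 ± 0.19, adjusted p = 0.0183), and its call ended without FGF15 replicate 1 (0.0798) or FGF15 replicate 2 (0.0869). Without FGF19 replicate 1 the difference of Tkfc was -0.56. The difference of Clec2d ranged from -1.37 to -0.63 with 1 array left out.

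Some genes stood on opposite sides of vehicle with the hormones. In 24 genes FGF19 was above and FGF15 under vehicle with both contrasts passing, and in 6 genes the reverse held. The first group included Tnfrsf12a, Trp53inp1, Cdkn1a, Sult1e1, 1700017B05Rik, Fbf1, Mrap and Srebf1, and the second Inhbe and G0s2. In Mrap the FGF19 excess over vehicle was small (1.22-fold, adjusted p = 0.0407), and in Tnfrsf12a it was 1.80-fold (adjusted p = 0.018).

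Some of the largest responses to the hormones did not pass the test between them. Moxd1, a monooxygenase-like gene, read 1685 and 1581 with vehicle, 10.2 and 1.37 with FGF15, and 14.3 and 6.12 with FGF19. All hormone arrays were close to 0 and overlapped, so at these signals no difference could be measured (0.16, 95% interval -0.17 to 0.50). Tff3, a secreted trefoil peptide, read 470.2 and 449.5, then 5.44 and 27.7, then 39.5 and 43.0 (0.63, 95% interval 0.20 to 1.06, adjusted p = 0.115). Rgs16, a regulator of G protein signalling, read 41.4 and 58.0, then 401 and 379, then 344 and 335 (-0.18, 95% interval -0.43 to 0.07, adjusted p = 0.477). The hormone arrays of Rgs16 and Tff3 did not overlap, but neither difference passed the test.

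The remaining lists had 2 or fewer called members each. None of 30 genes of oxidative phosphorylation and the TCA cycle passed in limma, and the smallest p values, of Idh3a, Ndufa9 and Atp5a1, were 0.0471, 0.065 and 0.0739 unadjusted, so only Idh3a had an unadjusted p under 0.05. Of 22 interferon and antigen processing genes, 1 was higher and 0 lower (4 unadjusted): Cxcl9, a T cell chemokine, read 62.2 and 81.0 with FGF15 and 166 and 165 with FGF19 (0.94 ± 0.13, adjusted p = 0.00258). Irf1 and Rsad2 differed by -0.44 and 0.34 and did not pass, although Irf1 was called without FGF19 replicate 2 (-0.62, adjusted p = 0.0301). Of 21 cell cycle genes 1, Cdkn1a, was higher and 0 lower (0 unadjusted), at a list median of 0.15. The replication genes Mcm6 and Rrm2 differed by 0.75 (95% interval 0.30 to 1.20) and 0.34 (0.13 to 0.55) without passing. Another probe set of Mcm6 gave 0.205 ± 0.181. Those of Rrm2 gave -0.385 ± 0.122, in the other direction, and 0.078 ± 0.135, and none of these passed. Without FGF15 replicate 1 Ccnd1 was called, and without FGF15 replicate 2 Mcm6 (0.60 and 1.01, adjusted p = 0.0204 and 0.0372). Of 31 genes of ribosome biogenesis 2, Rrs1 (1.34-fold) and Heatr1 (1.31-fold), were higher, 0 were lower (0 unadjusted) and Nolc1 did not pass (1.28-fold, adjusted p = 0.0584). The call of Rrs1 ended without FGF15 replicate 2 or either FGF19 array (adjusted p up to 0.0879), and that of Heatr1, whose other probe set gave -0.34 ± 0.15, without any FGF15 or FGF19 array (up to 0.129). Of 25 genes of amino acid breakdown and the urea cycle, Tat and Aass (1.23-fold) were higher, 0 were lower (2 unadjusted), and Ddc differed by 0.43 (95% interval 0.18 to 0.67, adjusted p = 0.0626). The call of Aass ended with any array but FGF19 replicate 1 left out (adjusted p up to 0.233), and Hpd was called lower without FGF19 replicate 2 (-0.32, adjusted p = 0.0134).

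Markers of liver cell types bear on what the RNA came from, and in bulk tissue fewer cells of a type and less RNA per cell cannot be told apart. Hepatocyte markers had 0 of 10 called by limma (1 unadjusted), and their summed signal was 82550 and 89260 with FGF15 and 69270 and 88030 with FGF19, the lowest value on FGF19 replicate 1. Their median difference was -0.12, and 0.02 without that array, while 6 were called lower without FGF19 replicate 2. Kupffer cell markers had 2 of 13 higher, the scavenger receptor gene Marco (2.01-fold) and Mpeg1 (1.42-fold), and 0 lower in limma (4 unadjusted), at a median of -0.12. Their summed signal was 3910 and 4011 with FGF15 and 3879 and 3814 with FGF19, against 7074 and 7013 with vehicle. The call of Marco ended without FGF19 replicate 1 (adjusted p = 0.0604). Neutrophil markers had 2 of 6 higher, S100a9 (1.91-fold) and S100a8 (1.48-fold, on an _s_at probe set), and 0 lower in limma (0 unadjusted), at a median of -0.04 and a lowest member of -0.41. Their summed signal was 379 and 321.5 with FGF15 and 478 and 534 with FGF19, while Camp and Cxcr2 lay under the filter. The call of S100a8 ended without FGF15 replicate 1 or FGF19 replicate 2 (adjusted p up to 0.0717).

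Few other markers were called. Of 14 stellate cell markers 0 were higher (4 unadjusted) and 1 was lower (1 unadjusted), at a median of 0.175. Of 13 sinusoidal endothelial markers 1 was higher (1 unadjusted) and 0 lower (0 unadjusted), at a median of -0.01. Of 2 adipose markers measured, 1 was higher and the other differed by -0.12. Lyve1 of sinusoidal endothelium was 1.32-fold higher, a call lost without any 1 of the 6 arrays (adjusted p up to 0.187), and Lrat of stellate cells 1.57-fold lower, a call lost without any FGF15 or FGF19 array (up to 0.161). Cela1 of the pancreatic acinar list was 1.39-fold lower, a call lost without either FGF15 array or FGF19 replicate 2 (up to 0.0859), with 4 of that list's 10 markers under the filter. Fabp4 of the adipose list was 1.54-fold higher, a call lost without FGF15 replicate 2 or FGF19 replicate 2 (up to 0.0725), with Adipoq, Lep and Retn under the filter. Of the cholangiocyte, lymphocyte and erythroid markers measured (6, 11 and 4) none was called in either direction by limma (1, 1 and 0 unadjusted). The part of these cells in the gene differences was not tested.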

How the data were processed

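Liver RNA of 6 mouse arrays was used, and array titles gave the groups. The deposited values are signal intensities on a linear scale, 1 per probe set and array. From the values themselves, the authors had scaled every deposited array to a common mean of about 200.1 after trimming 2% at each end. The software that summarised probes is not given in the sources used here. Per the platform annotation, 20380 of 22690 probe sets had 1 gene, 691 several and 1555 besides the 64 controls none, and only the first were named. Names were updated through Entrez to RefSeq GRCm38.p6 for 20351 probe sets, and 29 kept the platform symbol. Each gene was represented by its probe set of highest mean, and 2701 genes with a mean under the 25th percentile of all probe sets (a signal of about 14.0) were left out.

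Differences were fitted to log2(signal + 32) with limma 3.58.1 in R 4.3.3 (lmFit, eBayes with an intensity trend, 3 residual and 6.82 prior degrees of freedom) in a single model of the 6 arrays. Two-sided p-values were adjusted by Benjamini and Hochberg over 9692 genes, and adjusted p-values are from this fit unless another setting is named. With an array left out, or with the mean of probe sets, the adjusted p is from a fit of its own. Higher, lower and called mean an adjusted p under 0.05, and errors of differences are standard errors with 2 arrays a group, whose number limits the precision (median 0.13). The values of other probe sets of a gene come from a fit of every probe set with 1 gene. A call said to end without either array of a group ended whichever of the pair was dropped. Python 3.11.15 with matplotlib 3.10.9 drew the figures. The steps were tested on simulated data.

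The genes named by rule were 102 in all. They included the 15 with the largest difference each way among called genes with separate FGF19 and FGF15 pairs. Up to 3 of smallest p were taken from each of the 25 pathway lists. The others were 32 fixed by name, of which 30 were tested, and 10 with the hormones on opposite sides of vehicle. Other list members, among them all called members of the 10 lists of cell type markers, were named after their values were seen. The comparison, the members and the lists were chosen with earlier results of these data known, so their counts and medians are descriptions. Alternatives were other pseudocounts, scalings, filters, variance priors and thresholds, the mean of probe sets, only the hormone arrays, the replicate number as a block, each array left out and, added after seeing the data, every probe set. Replicate numbers did not pair the arrays: the correlations of same-numbered deviations were 0.07, -0.02 and 0.05.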

Additional observations from a re-analysis of the deposited data

Results flagged for a closer look

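The 18S ribosomal RNA control probe sets, which enter no gene comparison, read 29.3 on FGF19 replicate 1, above the 9.99 to 12.6 of the other arrays, vehicle included. The same array had the highest 3' to 5' ratio for GAPDH (0.82 against 0.72 to 0.774) and pyruvate carboxylase (3.38 against 2.27 to 2.73), but not for the transferrin receptor (3.71 against 2.33 to 4.25). Of the 73 called genes named by rule, 63 were still called without it. The part of this array's RNA in the counts was not tested.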

How the results depend on the processing

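Against 233 higher and 183 lower genes, an eBayes fit without trend gave 110 and 53, of which 109 and 51 were among those called by the trend fit, and a threshold of 0.10 gave 349 and 350. With any single array left out the counts were 137 to 192 higher and 97 to 170 lower; the lowest of each came without FGF19 replicate 1. All other settings stayed within 1.5-fold, from 181 to 302 higher and 129 to 241 lower, among them quantile normalization (252 and 197), centring on medians (252 and 141) and every probe set with 1 gene (302 and 208). With the replicate number as a block, which did not pair the arrays, the counts were 242 and 208; G6pc lost its call, and Hsph1 and Mcm6 gained one. The fit without trend ended the calls of Clec2d, Tkfc, G6pc, Per1, Cyp2c70, Nr1h4, Nr1i2, Nr1i3, Dnajb9, Manf, Dnajb4, Fasn, Elovl6, Angptl4, Idi1, Hmgcs1, Sqle, Abca1, Slc22a7, Gsta2, Socs2, Igfals, Il1r1, Crp, Rrs1, Heatr1 and Aass. Centring on medians ended those of G6pc, Manf, Hmgcs1, Sqle and Aass, and averaging probe sets those of Clec2d, Fzd7, Angptl4, Cebpd and Heatr1. Of the 73 called genes named by rule, 44 kept their call in every setting run and 54 with any single array left out, and none changed direction.

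Differences that changed sign all belonged to genes that were not called. Hspa5 was 0.008 under quantile normalization. Averaging the probe sets of a gene gave Cyp7b1 0.022, Klb 0.102, Pck1 -0.061, Trib3 -0.025 and Atp5a1 0.124. With 1 array left out, Nr0b2 ranged from -0.040 to 0.058, Klb from -0.149 to 0.078, Trib3 from -0.215 to 0.577, Ddit3 from -0.100 to 0.021, Moxd1 from -0.005 to 0.333 and Hspa5 from -0.084 to 0.015. The cause of these changes was not tested. With 2 arrays a group the fit rests on the spread shared across groups and genes, and an array left out leaves its group a single array assumed to vary like the others.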

Other observations

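Outside the genes named by rule, 20 more were called at over 2-fold higher with FGF19 and 0 were called at over 2-fold lower. They were chosen after their values were seen, and all of them but Maff and Marco kept their call with any single array left out. Slc38a2, an amino acid transporter, read 1137 and 1475 with vehicle, 1042 and 1058 with FGF15, and 2689 and 2569 with FGF19 (2.46-fold, adjusted p = 8.14e-05). Csad, an enzyme of the synthesis of taurine, with which mouse bile acids are conjugated, read 681 and 703, then 469.7 and 474.5, then 1072 and 1174 (2.29-fold, adjusted p = 8.85e-06). In both genes the FGF19 arrays lay above all others. In Csad the hormones passed the test against vehicle in opposite directions (-0.52 with FGF15 and 0.67 with FGF19). Pltp, the phospholipid transfer protein, read 708.5 and 713, then 1117 and 1200, then 2332 and 2448 on an _s_at probe set (2.04-fold, adjusted p = 1.88e-05). It was above vehicle with both hormones and highest with FGF19. Pde4b, a cAMP phosphodiesterase, was 2.35-fold higher with FGF19 than with FGF15, Bcl2l1, an inhibitor of apoptosis, 2.23-fold, Id1, a target of BMP signalling, 2.15-fold, and Chka, a choline kinase, 2.05-fold. Actg1, a cytoskeletal actin, was 2.15-fold higher on an _s_at probe set and Dnase2a, a lysosomal nuclease, 2.26-fold on an _x_at probe set, types that can bind related transcripts.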
